A study of Homo sapiens with 18 samples.

Results

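MHC class II genes and their regulator CIITA were followed in the established human pancreatic cancer cell line MiaPaCa-2. The set is 10 genes chosen by symbol, of 57445 genes in the count table: CIITA, CD74, HLA-DRA, HLA-DRB1, HLA-DQA1, HLA-DQB1, HLA-DPA1, HLA-DPB1, HLA-DMA and HLA-DMB. All 10 were in the table and all 10 passed the filter on low counts, also when the filter was run without the passage 4 leaders and lagger replicate 1. RNA was sequenced in 18 libraries, in 6 groups of 3. The parental group was the line grown in vitro and never injected. The other 5 groups came from the sciatic nerve after injection: passage 1 laggers, and leaders of passages 1, 2, 3 and 4. Leaders were grown in culture between passages and part of them was injected again, so each leader passage descends from the one before. All groups carry the genotype label WT and no drug or cytokine treatment is named. The sources used here give neither the host animal and its age nor how leaders were separated from laggers. No label ties replicates to different animals or cultures, so p-values measure the spread between these libraries, which may be technical.

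MHC class II molecules are surface receptors that show peptides from the endosomal pathway to CD4+ T cells. Each is a pair of an alpha and a beta chain, assembled with the invariant chain CD74, and peptide loading is helped by HLA-DM, itself a pair of HLA-DMA and HLA-DMB. Professional antigen-presenting cells make class II constitutively, whereas most epithelial and cancer cells make it only when CIITA is switched on, classically by interferon gamma. CIITA is a co-activator that does not bind DNA itself: it is recruited by a complex of RFX, CREB and NF-Y proteins on the X and Y boxes of class II promoters.

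The promoters are shown first, because the genes of this set are known for a shared promoter layout and 10 of 10 were highest in the same libraries. RefSeq promoters (250 bases before to 50 after the gene start, build GRCh38.p14) were available for 8 of the 10 genes. They were searched on both strands for AGNNAC, the letters shared by the start of the X boxes, followed after 20 to 35 bases by ATTGG or its complement CCAAT, the core of the Y box. The letters were chosen from textbook knowledge after these sequences had been seen. The pair was found on the gene's own strand for 5 genes, printed here 5′ to 3′ on that strand with both motifs in capitals. The coordinates cover the printed bases.

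CD74, chr5:150412939-150413011, minus strand: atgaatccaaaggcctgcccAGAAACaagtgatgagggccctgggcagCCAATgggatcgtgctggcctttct
HLA-DRB1, chr6:32589870-32589947, minus strand: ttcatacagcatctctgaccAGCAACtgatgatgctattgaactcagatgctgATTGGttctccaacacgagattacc
HLA-DQA1, chr6:32637284-32637362, plus strand: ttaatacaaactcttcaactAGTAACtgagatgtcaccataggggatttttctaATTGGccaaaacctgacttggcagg
HLA-DQB1, chr6:32666721-32666798, minus strand: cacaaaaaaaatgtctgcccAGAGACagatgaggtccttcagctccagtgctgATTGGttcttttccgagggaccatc
HLA-DMA, chr6:32953152-32953230, minus strand: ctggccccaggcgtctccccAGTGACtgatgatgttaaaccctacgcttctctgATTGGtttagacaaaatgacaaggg

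In these 5 promoters 22 to 28 bases lay between the motifs, and the HLA-DQA1 promoter also held the pair on the other strand. HLA-DPB1 held the pair on the reverse strand alone, which made 6 genes in all. No pair was found in the windows of HLA-DMB or in either of the 2 entries of HLA-DPA1. Of all 35116 promoters of this length in the table, 1664 (4.74%) held the pair on either strand, and 34.6% held ATTGG or CCAAT. These matches describe letters only.

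The genes lie on chromosome 6, except CD74 on chromosome 5 and CIITA on chromosome 16. Several values are uncertain because the library kit does not mark strand. HLA-DPA1 and HLA-DPB1 overlap on opposite strands, HLA-DQB1 overlaps HLA-DQB1-AS1, HLA-DMA overlaps BRD2 and CIITA overlaps DEXI in GENCODE 29, so reads from shared bases cannot be told apart. HLA-DRB1 has near-identical copies (HLA-DRB5, HLA-DRB6), as does HLA-DQA1 (HLA-DQA2), and reads could be split between them or dropped as not unique.

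Counts assigned to genes ran from 15113462 to 39373248 per library. Reads aligned to several places made up 13.9% to 16.4% of entries for the parental line and 20.2% to 32.6% after injection, and mitochondrial genes took 0.472% to 0.873% and 1.95% to 8.57% of gene counts. Whether these differences bear on the class II values was not tested. Markers of the labelled cell type (KRT8, KRT18, KRT19, KRT7, VIM and EPCAM) summed to 6401 to 8477 CPM (each library's counts scaled to its TMM-normalised size) in the parental line and to 12593 to 31319 CPM in the injected groups. The sum does not speak for each marker. EPCAM had 0 counts in the parental line and at most 10 in any group. In the parental line KRT7 had a mean of 6.90 CPM, beside 2465, 2419 and 1826 CPM for KRT8, KRT18 and VIM. Levels below are CPM, group values are mean ± SD over 3 libraries, and changes are log2 fold changes ± standard error (SE) from edgeR's quasi-likelihood test, adjusted by Benjamini-Hochberg over all 16187 tested genes. A gene was called at an adjusted p under 0.05.

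Class II genes and CIITA were far higher in passage 4 leaders than in any other group. For each of the 10 genes the 3 passage 4 libraries lay above the 15 others. The lowest passage 4 library exceeded the highest of the 14 libraries other than lagger replicate 1 by 1.99-fold for HLA-DQB1 and by up to 37.5-fold for HLA-DQA1. The summed level of the 9 genes other than CIITA was 1492, 1292 and 874 CPM in the passage 4 leaders, against 6.20 to 9.33 CPM in the parental line, 21.6 to 42.5 at passage 1, 24.6 to 40.0 at passage 2 and 41.9 to 60.3 at passage 3. In the laggers it was 302.5, 16.6 and 30.3 CPM, so that replicate 1 stood alone. In bulk RNA, more cells that make class II and more RNA per cell cannot be told apart.

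**Figure D1:**
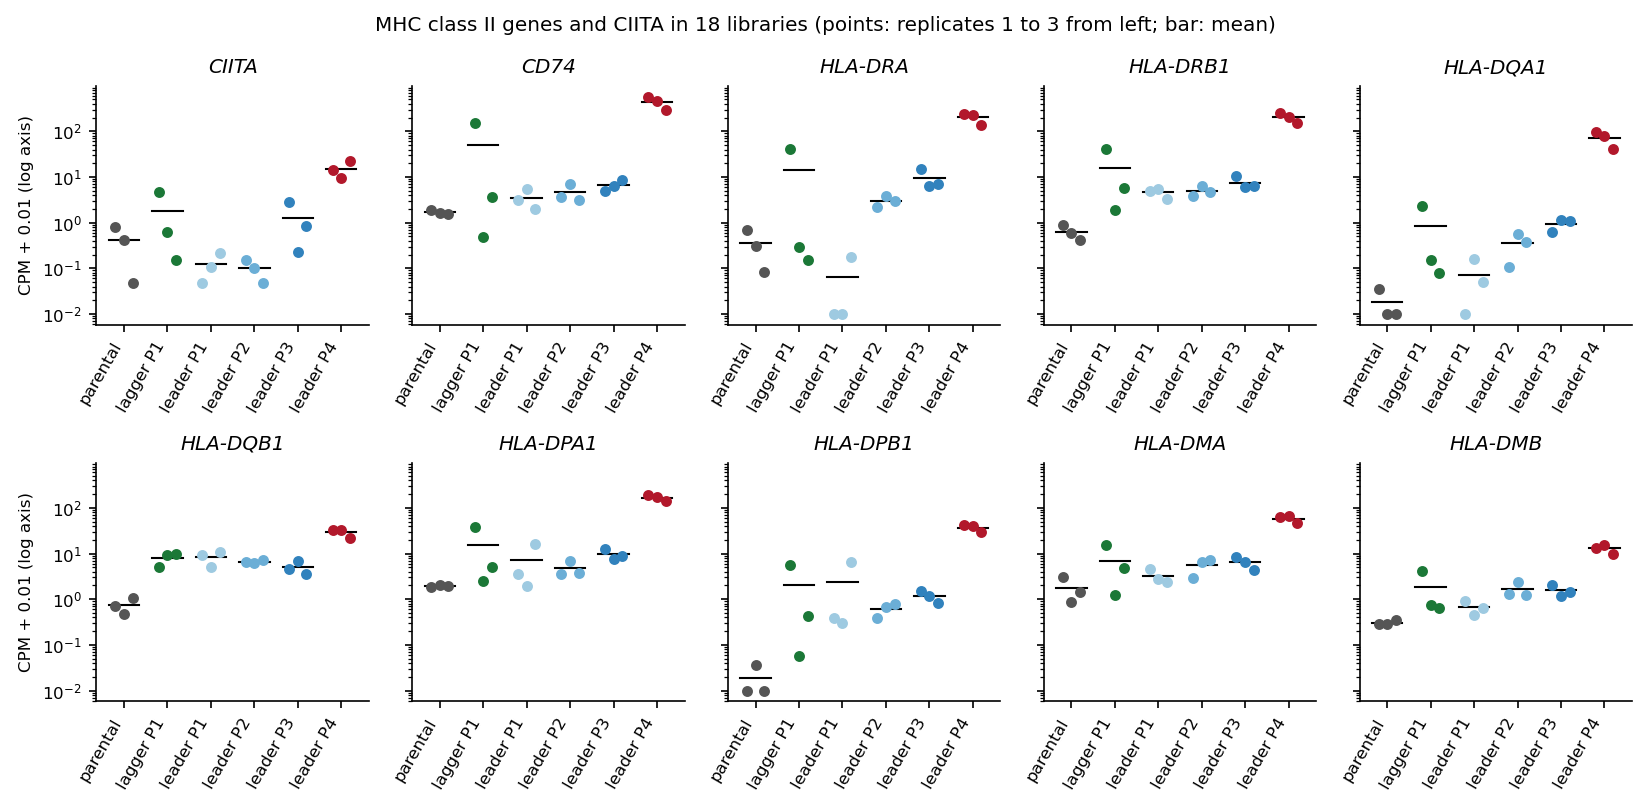
Level of each gene in every library (CPM + 0.01, log axis), with replicates 1 to 3 from left to right in each group and the group mean as a bar. The 3 passage 4 leader libraries lie above the other 15 for all 10 genes, and lagger replicate 1 lies above the remaining 14 for 8 of them.

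CIITA, the co-activator, was low in every group but passage 4. Its level was 13.98, 9.49 and 22.2 CPM in the passage 4 leaders (313, 228 and 672 counts), and 0.796, 0.408 and 0.037 CPM in the parental line (32, 16 and 1 counts). Passage 1 leaders held 0.0368, 0.099 and 0.208 CPM and passage 2 leaders 0.143, 0.0938 and 0.0369 CPM, at most 5 counts per library. Both early leader passages were thus at the level of a few reads. Passage 3 leaders were uneven, at 2.82, 0.213 and 0.826 CPM. Lagger replicate 1 held 4.68 CPM, while replicates 2 and 3 held 0.623 and 0.14 CPM. By group mean the order was passage 4 leaders, laggers, passage 3 leaders, parental line, passage 1 and passage 2 leaders, and only the first step had no overlap between libraries.

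CD74, the invariant chain that fills the groove of new class II molecules, had the highest CPM of the set in passage 4 leaders and in lagger replicate 1. It reached 569, 450 and 295 CPM in the passage 4 leaders (12731, 10812 and 8933 counts), against 1.92, 1.63 and 1.55 CPM in the parental line. Leaders of passages 1 to 3 lay between 1.99 and 8.53 CPM, above the parental libraries without exception. Lagger replicate 1 was at 149 CPM and the other 2 laggers at 0.479 and 3.64 CPM. The lagger group therefore spans the parental level on both sides.

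HLA-DRA, the near-invariant alpha chain of HLA-DR, rose by passage. It was at 0, 0 and 0.166 CPM in the passage 1 leaders, where 0 counts allow up to 0.110 and 0.148 CPM (3 counts, counting error only). It was at 2.20, 3.75 and 2.91 CPM at passage 2, at 15.3, 6.40 and 6.87 CPM at passage 3 and at 236, 230 and 140 CPM at passage 4. Each leader passage lay wholly above the one before, an order found for 0.494% of tested genes and for no other gene of the set. The parental line held 0.672, 0.306 and 0.074 CPM. The laggers held 41.3, 0.287 and 0.14 CPM, so 2 of 3 were within the parental range.

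HLA-DRB1, the beta chain that pairs with HLA-DRA, was at 250, 203 and 150 CPM in passage 4 leaders and at 0.896, 0.587 and 0.407 CPM in the parental line. Unlike HLA-DRA it was already at 5.01, 5.54 and 3.32 CPM in passage 1 leaders, and stayed between 3.87 and 10.3 CPM at passages 2 and 3. The 2 passage 1 leader libraries without a single HLA-DRA count thus held 136 and 112 HLA-DRB1 counts. The laggers were at 40.7, 1.87 and 5.74 CPM.

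The HLA-DQ chains parted from each other. HLA-DQA1, the alpha chain, had 1 count in the parental line and 4 in the passage 1 leaders, and reached 98.8, 77.5 and 42.0 CPM in the passage 4 leaders (2212, 1861 and 1271 counts). In parental replicates 2 and 3, 0 counts allow up to 0.0766 and 0.111 CPM. HLA-DQB1, the beta chain, was at 0.697, 0.46 and 1.04 CPM in the parental line, but between 3.57 and 10.96 CPM in all 12 libraries of the laggers and the leaders of passages 1 to 3. It then reached 32.9, 32.9 and 21.8 CPM at passage 4. Lagger replicate 1, high for 8 of the 10 genes, had the lowest HLA-DQB1 of the laggers, 5.15 against 9.34 and 9.94 CPM.

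HLA-DPA1 and HLA-DPB1, the chains of HLA-DP, moved together within libraries. HLA-DPA1 was at 189, 175 and 140 CPM and HLA-DPB1 at 41.4, 40.4 and 29.3 CPM in the passage 4 leaders. In the parental line HLA-DPA1 lay between 1.87 and 2.04 CPM, and HLA-DPB1 had 1 count in all 3 libraries, with 0 counts in replicates 1 and 3 allowing up to 0.0746 and 0.111 CPM. Passage 1 leader replicate 3 stood out for this pair, with 16.5 CPM of HLA-DPA1 and 6.43 CPM of HLA-DPB1. Its 2 companions held 3.53 and 1.93 CPM and 0.368 and 0.297 CPM. Outside the set, the class II gene HLA-DOA had 17 counts in that library and 0 in both companions. HLA-DPA1 and HLA-DPB1 share bases on opposite strands, so their values are not independent.

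The HLA-DM chains, which exchange peptides in the endosome and do not reach T cells themselves, were also highest at passage 4. HLA-DMA was at 62.5, 66.6 and 45.9 CPM and HLA-DMB at 13.2, 15.7 and 9.78 CPM in the passage 4 leaders. In the parental line HLA-DMA was at 2.99, 0.868 and 1.44 CPM and HLA-DMB at 0.274, 0.281 and 0.333 CPM. Lagger replicate 1 was again above its companions, at 15.02 and 4.16 CPM. Passages 1 to 3 lay between 2.41 and 8.30 CPM for HLA-DMA and between 0.445 and 2.39 CPM for HLA-DMB.

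Against the parental line, passage 4 leaders had higher levels of 10 of 10 genes, where 14.8% of all tested genes were called higher. The median log2 fold change was 7.22 over the set and 0.03 over all tested genes. CIITA rose by a log2 fold change of 5.14 ± 1.12 (edgeR adjusted p = 3.145e-03) and CD74 by 8.00 ± 1.42 (edgeR adjusted p = 7.134e-04). Among the classical chains the log2 fold changes were 9.08 ± 1.57 for HLA-DRA, 8.28 ± 0.93 for HLA-DRB1, 6.43 ± 0.97 for HLA-DPA1 and 5.33 ± 0.43 for HLA-DQB1. HLA-DMA rose by 5.04 ± 0.73 and HLA-DMB by 5.43 ± 0.67, close to CIITA. For HLA-DQA1 and HLA-DPB1 the parental line had 1 count each, so the ratio of pooled levels was 7410 (95% interval 1330 to 293000) and 3860 (693 to 153000), for counting error only. All 3 passage 4 libraries lay above all 3 parental ones for each of the 10 genes, an order that 22.6% of tested genes showed.

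**Figure D2:**
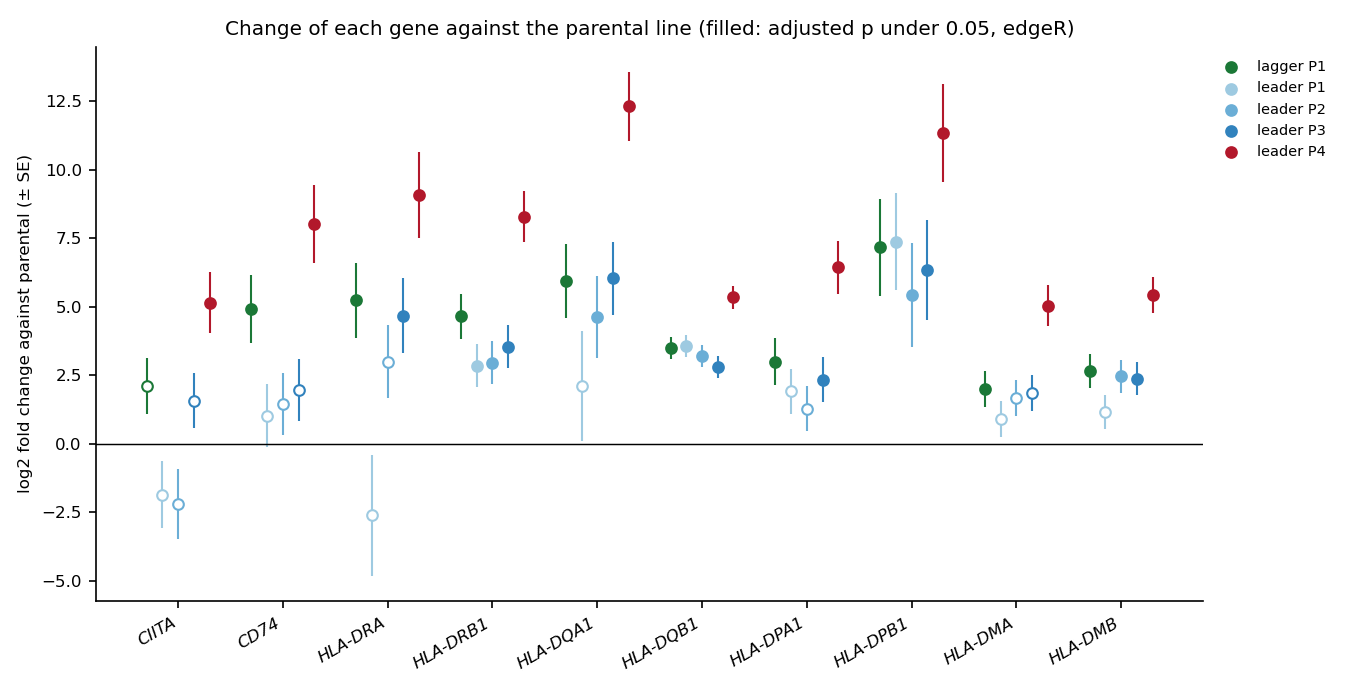
Log2 fold change ± SE of each gene against the parental line for the laggers and the 4 leader passages, filled where the edgeR adjusted p was under 0.05. Passage 4 is filled for all 10 genes and lies highest for each, with CIITA at 5.14 and CD74 at 8.00, and all 5 comparisons share the same 3 parental libraries.

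The earlier leader passages had fewer of these genes above the parental line. At passage 1, 3 of 10 were higher (HLA-DRB1, HLA-DQB1 and HLA-DPB1), where 23.2% of tested genes were. HLA-DQB1 rose by 3.55 ± 0.40 and HLA-DRB1 by 2.84 ± 0.78, while HLA-DPB1 owed 155 of its 171 counts to replicate 3. At passage 2, 5 of 10 were higher (HLA-DRB1, HLA-DQA1, HLA-DQB1, HLA-DPB1 and HLA-DMB), against 15.1% of tested genes. At passage 3, 7 of 10 were higher, against 13.8%, and CIITA (1.57 ± 1.02), CD74 (1.96 ± 1.14) and HLA-DMA (1.84 ± 0.65, edgeR adjusted p = 0.05006) did not pass. No gene of the set was called lower by edgeR in laggers or at passages 1 to 4, where 17.8%, 22.4%, 14.8%, 10.8% and 12.9% of tested genes were. Leaving out any 1 library of the compared groups gave 3 to 4 genes at passage 2 and 4 to 6 at passage 3. The count at passage 2 was 3 without leader replicate 2 or 3 or parental replicate 2 or 3, and that at passage 3 was 4 without parental replicate 2 or 3. The 5 comparisons share their parental libraries.

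Passage 4 stood above passage 3 throughout the set. All 3 passage 4 libraries lay above all 3 passage 3 libraries for 10 of 10 genes, where 9.03% of tested genes had this order. Against passage 1, passage 4 leaders were higher for 10 of 10 genes, with 10.8% of tested genes called higher, and all 3 libraries lay above all 3 of passage 1, as for 24.1% of tested genes. The median log2 fold change was 4.98, against -0.02 over all tested genes. The fitted log2 fold changes were 11.69 ± 1.89 for HLA-DRA and 10.20 ± 1.11 for HLA-DQA1, each over only 4 counts at passage 1. Their ratios of pooled levels were 3510 (95% interval 1370 to 12900) and 1250 (486 to 4570), for counting error only, and these intervals overlap. HLA-DQB1 had the smallest change, 1.78 ± 0.36 (edgeR adjusted p = 3.176e-03). CIITA (7.01 ± 1.29) and CD74 (6.99 ± 1.36) lay between. HLA-DRB1, HLA-DPA1, HLA-DMB, HLA-DMA and HLA-DPB1 rose by 5.44, 4.52, 4.29, 4.14 and 3.96, and HLA-DPB1 had the highest adjusted p of the set (0.02098, edgeR), which became 0.06973, 0.07193 and 0.05141 without passage 1 replicate 1, passage 1 replicate 2 and passage 4 replicate 3.

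The higher levels of the laggers over the parental line rested largely on replicate 1. With all libraries 9 of 10 genes were called higher, all but CIITA (2.10 ± 1.02, edgeR adjusted p = 0.1129), where 21.5% of tested genes were. CD74 had a log2 fold change of 4.91 ± 1.25, HLA-DRA of 5.23 ± 1.38 and HLA-DQB1 of 3.49 ± 0.40. Without lagger replicate 1 only HLA-DRB1 (2.47) and HLA-DQB1 (3.71) passed, CD74 was at 0.14, and HLA-DRA and CIITA were at -0.72 and -0.09. Replicate 1 exceeded the higher of the other 2 laggers 144-fold for HLA-DRA, 41.0-fold for CD74 and 7.51-fold for CIITA. It remained below the passage 4 leaders for all 10 genes: their mean was 2.93-fold (CD74) to 31.4-fold (HLA-DQA1) above it.

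Between leaders and laggers of passage 1 the test called none of these genes. By edgeR 0 of 10 passed, where 0.0618% of tested genes were called in either direction. At an unadjusted p under 0.05 there were 6, all lower in leaders, DESeq2 called 2 lower (CIITA and CD74), and limma-voom called 0. The share of all tested genes under these other rules is not given here, and the 0.0618% does not apply to them. The log2 fold changes ran from -7.84 ± 1.80 for HLA-DRA, which had 4 counts in the leaders, to 0.21 ± 1.05 for HLA-DPB1. Without lagger replicate 1 that of CD74 turned to 0.92, of HLA-DRB1 to 0.41 and of HLA-DPA1 to 1.08.

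Within passage 4 the alpha and beta chains were compared per length, in CPM per kilobase, with the principal GENCODE 29 transcript and with the union of all exons. HLA-DRA and HLA-DRB1 were near parity, with a ratio of 0.898 to 1.09 across the 3 libraries. For each of these genes both lengths are the same, so the choice of length could not change this ratio. HLA-DQA1 exceeded HLA-DQB1 2.10- to 3.27-fold (1.36- to 2.12-fold by exon union), HLA-DPA1 exceeded HLA-DPB1 3.98- to 4.39-fold (2.11- to 2.33-fold), and HLA-DMA exceeded HLA-DMB 5.27- to 5.90-fold (7.78- to 8.72-fold). In these pairs the alpha chain thus had the higher counted level per length at passage 4 under either length. Whether reads lost from overlapping or near-identical genes change these ratios was not tested. For HLA-DQ the order was the opposite in the 15 other libraries, where the ratio of HLA-DQA1 to HLA-DQB1 was at most 0.490, in lagger replicate 1. CD74 against HLA-DRA depended on the length used: 2.55 to 3.15 by principal transcript and 0.786 to 0.970 by exon union.

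The 4 libraries highest in CIITA were the passage 4 leaders and lagger replicate 1. For the genes it is known to control, the passage 4 leaders were also highest. Lagger replicate 1 came next for all of them but HLA-DQB1 and HLA-DPB1. CIITA and these genes did not keep 1 order within groups. Among the passage 4 leaders replicate 3 had the highest CIITA (22.2 CPM) and the lowest summed class II level (874 CPM). Passage 3 leader replicate 1 had 2.82 CPM of CIITA with a sum of 60.3 CPM, whereas parental replicate 1, with 0.796 CPM, had a sum of 9.33 CPM. Over all 18 libraries Pearson's r of log2 CPM with CIITA ran from 0.41 (HLA-DQB1) to 0.84 (HLA-DPA1), which includes the step to those 4 libraries. Over the other 14 it ran from -0.23 (HLA-DQB1) to 0.50 (HLA-DRA). CIITA rests on at most 51 counts in those 14, which limits any such value.

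**Figure D3:**
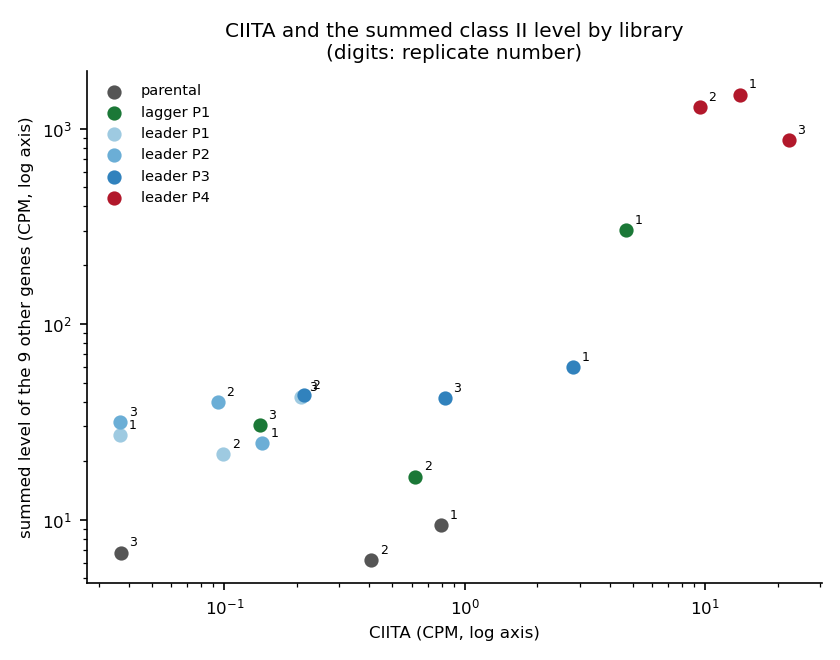
CIITA level against the summed level of the 9 other genes in each library (CPM, both axes log), with digits for the replicate number. The 3 passage 4 leaders form the upper right corner at 9.49 to 22.2 CPM of CIITA and sums of 874 to 1492 CPM, lagger replicate 1 lies next at 4.68 and 302.5 CPM, and the other 14 libraries have sums of at most 60.3 CPM at any CIITA level.

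Of 7 other class II genes, 3 passed the filter. HLA-DRB5 and HLA-DOA were called higher in passage 4 leaders than in the parental line, beside 14.8% of all tested genes. HLA-DRB6 was called higher too, but had at most 11 counts in any library outside passage 4. It passed the filter through its passage 4 libraries, so its call was not independent of the filter. HLA-DRB5, a further DR beta chain, was at 17.95 ± 4.80 CPM against 0.175 ± 0.0424 CPM, a log2 fold change of 6.63 ± 0.71. The pseudogene HLA-DRB6 rose by 8.07 ± 1.18 and HLA-DOA, a chain of the HLA-DM inhibitor HLA-DO, by 5.90 ± 1.56. Its partner HLA-DOB had 0 counts in every passage 4 library. HLA-DQB2, which did not pass the filter, had 16 counts in laggers, 10 at passage 1 and 3 at passage 4. HLA-DRB5 and HLA-DRB6 could hold reads from HLA-DRB1.

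The RFX, NF-Y and CREB factors that recruit CIITA, and the acetyltransferases it works with, were listed together. Of these 10 enhanceosome genes, 1 was higher in passage 4 leaders than in the parental line (KAT2B, a histone acetyltransferase, 0.70 ± 0.22) and 0 were lower, by edgeR, a share near the 14.8% and 12.9% of all tested genes. RFX5, the RFX subunit mutated in one form of bare lymphocyte syndrome, was at 103 ± 17.2 CPM at passage 4, 72.7 ± 3.71 CPM at passage 1 and 117 ± 7.32 CPM in the parental line. At passage 1, 4 of the 10 were lower than in the parental line (RFX5, NFYC, CREBBP and EP300) and 1 was higher (KAT2B), where 22.4% and 23.2% of all tested genes were. Against passage 1, 4 of 10 were higher at passage 4, where 10.8% of tested genes were: RFX5 by 0.50 ± 0.16, NFYC by 0.49 ± 0.16, NFYA by 0.77 ± 0.25 and the acetyltransferase EP300 by 0.78 ± 0.22. These steps are under 1 on the log2 scale, beside 7.01 for CIITA.

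Interferon gamma, the classical inducer of CIITA, was not detected: IFNG had 0 counts in all 18 libraries. Of 8 tested genes of its signalling chain, 4 were higher in passage 4 leaders than in the parental line (the receptor chains IFNGR1 at 1.63 ± 0.33 and IFNGR2 at 0.91 ± 0.16, the transcription factor IRF1 at 2.11 ± 0.36 and the feedback inhibitor SOCS1 at 3.27 ± 0.42), beside 14.8% of all tested genes. Of 8 tested target genes 5 were higher: the guanylate-binding proteins GBP1, GBP2 and GBP4, the immunoproteasome subunit PSMB9 and the adhesion molecule ICAM1. These 5 were also called higher in passage 1 leaders and laggers, against the same parental libraries, beside 23.2% and 21.5% of all tested genes. Of the 8 targets, 2 were called lower in passage 1 leaders and 1 in laggers, beside 22.4% and 17.8% of all tested genes. Between passages 1 and 4, 1 of 8 signalling genes was higher (IFNGR2, 0.49 ± 0.16) and 1 of 8 targets was higher (WARS, a tRNA synthetase, 0.98 ± 0.21), each near the 10.8% of all tested genes. WARS was at 290 ± 10.4 CPM in the parental line, 103 ± 28.5 CPM at passage 1 and 203 ± 37.8 CPM at passage 4. Its passage 4 mean thus stayed below the parental one. GBP1 was at 8.098 ± 4.397 CPM at passage 1 and 14.04 ± 9.69 CPM at passage 4.

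In lagger replicate 1 some interferon targets were high along with class II and others were not. It had 103 CPM of GBP1, where the other 2 laggers had 4.79 and 9.03 CPM and the passage 4 leaders 25.1, 10.2 and 6.84 CPM. PSMB9 was at 158 CPM in that library, at 15.04 and 32.4 CPM in the other laggers and at 33.3, 32.4 and 29.4 CPM in the passage 4 leaders. GBP4 was at 55.98 CPM there, and at 0.983, 1.46 and 1.45 CPM in the passage 4 leaders. ICAM1 went the other way, at 4.11 CPM in replicate 1 against 5.03 and 38.4 CPM in the other laggers, and GBP2, at 10.2 CPM, lay between their 3.64 and 12.96 CPM. WARS, at 239 CPM, also lay between its companions, and CXCL10 and IDO1 had 0 counts in that library. Lagger replicate 1 had a summed class II level of 302.5 CPM, below the 3 passage 4 leaders and above the other 14 libraries. Among laggers and passage 4 leaders it had the highest levels of GBP1, PSMB9 and GBP4. Whether these targets have a part in the class II values was not tested.

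Class I presentation, which shows cytosolic peptides to CD8+ T cells, had smaller changes. Between passages 1 and 4, 3 of 10 genes were higher (HLA-B by 1.35 ± 0.37, the peptide transporter TAP1 by 1.21 ± 0.28 and its partner TAPBP by 0.95 ± 0.24), with a median of 0.86 over the list and 10.8% of all tested genes higher. Against the parental line 6 of 10 were higher at passage 4 (14.8% of tested genes), and HLA-B was at 741 ± 50.7 against 79.3 ± 13.5 CPM. The same number, 6 of 10, was higher in the laggers (21.5% of tested genes). B2M, the class I light chain, was at 1519.95 ± 538 CPM at passage 1 and 749.7 ± 172 CPM at passage 4, and this difference did not pass the test (edgeR adjusted p = 0.1187).

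The rest of the class II pathway was read between passages 1 and 4 in the same way. Of 10 lysosomal processing genes 0 were higher and 1 was lower by edgeR, CTSH (cathepsin H, -1.37 ± 0.23), which is near the 10.8% and 9.17% of all tested genes. CTSS, the cathepsin that trims the invariant chain, was at 7.98 ± 10.0 CPM at passage 1 and 1.72 ± 0.34 CPM at passage 4, against 0 counts in the parental line. Of 4 tested genes for class II turnover and co-stimulation 0 were called by edgeR. CD80, a co-stimulatory ligand for T cells, had 0 counts in every library, and CD86 was at 0.194 ± 0.335 CPM at passage 4 and 4.28 ± 2.82 CPM at passage 2.

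**Figure D4:**
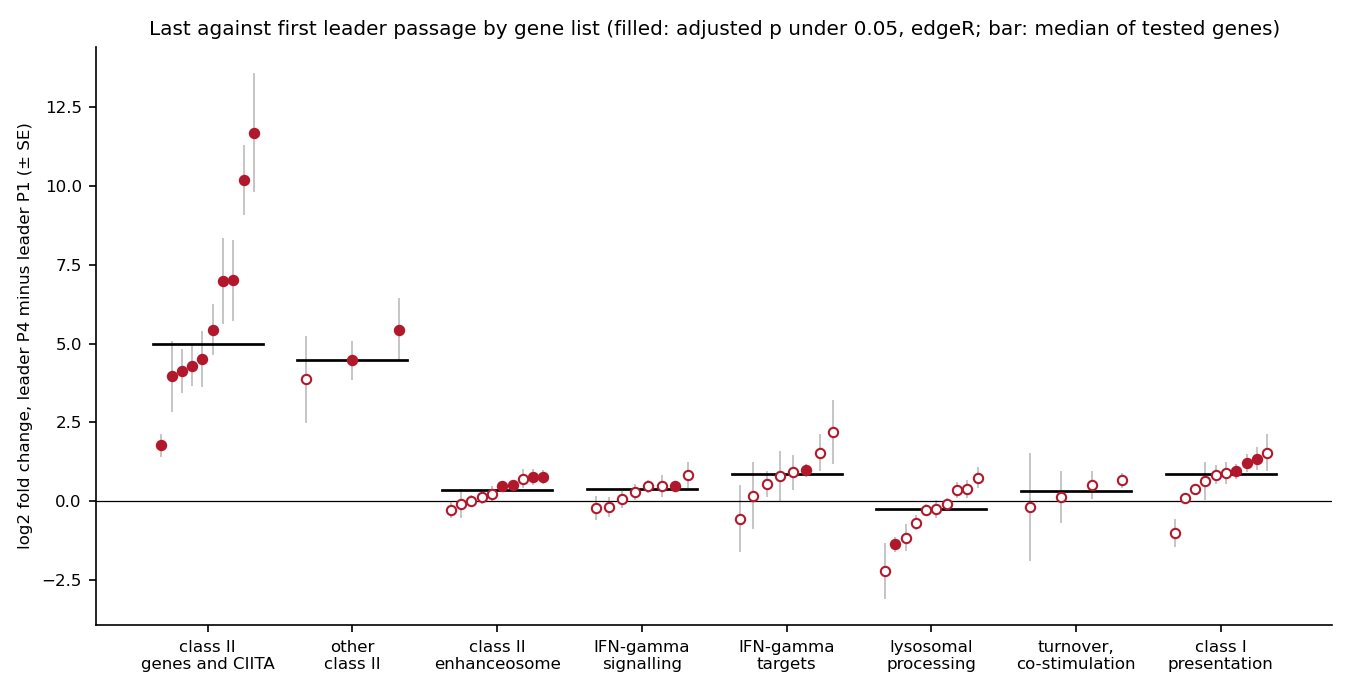
Log2 fold change ± SE of passage 4 against passage 1 leaders for the tested genes of each list, filled where the edgeR adjusted p was under 0.05, with the list median as a bar. The class II genes and CIITA run from 1.78 to 11.69 with a median of 4.98, while the class I list has a median of 0.86 and the enhanceosome list one of 0.36.

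Markers of cells that make class II constitutively were read beside these values. Macrophage markers (12 genes) summed to 11.3 to 35.4 CPM in passage 4 leaders, 2.46 to 6.23 CPM in laggers and 3.06 to 6.36 CPM in the parental line, and lagger replicate 1 had the lowest sum of the laggers. AIF1, LYZ, TYROBP, CD163 and MRC1 were at 0 counts in all passage 4 leaders. Of the 5 tested macrophage markers, 2 were higher there than in the parental line and 2 were lower, beside 14.8% and 12.9% of all tested genes. ITGAM, an integrin chain of myeloid cells, rose from 2.24 ± 1.44 to 20.9 ± 12.8 CPM, while CD68 fell by 2.74 ± 0.66 and FCER1G by 2.63 ± 0.68 on the log2 scale. PTPRC, the leukocyte antigen CD45, had 0 counts in all parental and lagger libraries, lagger replicate 1 included. It had 151, 214, 196 and 47 counts in leaders of passages 1, 2, 3 and 4, and 0 in passage 4 replicate 3. Dendritic cell markers (6 genes) summed to at most 3.14 CPM in any library, with CLEC9A and CD1C at 0 counts throughout. Among B cell markers CD79A, a chain of the B cell receptor complex, was at 260, 385 and 675 CPM in passage 4 leaders, while MS4A1, CD79B and PAX5 were at 0 counts there. CD79A was at 151 CPM in passage 3 leader replicate 3, whose class II sum was the lowest of its group, and at 0.709 CPM in lagger replicate 1. Fibroblast markers (7 genes) summed to 119 to 253 CPM in the parental line, 1274 to 2153 CPM in laggers, 1009 to 2310 CPM at passage 1 and 234 to 496 CPM at passage 4. The sum was thus lower at passage 4 than at passage 1, where 4 of the 7 were called lower and 0 higher, beside 9.17% and 10.8% of all tested genes. The mean of PDGFRA was higher at passage 4 (13.9 against 10.0 CPM), as was that of PDGFRB (0.297 against 0.0782 CPM). COL1A1 had a higher mean in the parental line (160 CPM) than at passage 1 (17.9 CPM). Schwann cell markers (6 genes) summed to 199.5 to 235 CPM in the parental line and to at most 53.5 CPM after injection. The part of such cells in the class II values was not tested.

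Genes of like pattern were named by the highest Pearson correlation of log2 CPM with CD74, HLA-DRA or CIITA over the 18 libraries. The set itself and genes whose symbol is a clone or locus name were left out. The libraries share groups, so these values are descriptions, and r over the 14 libraries other than passage 4 and lagger replicate 1 is given after each. For CD74 they were HLA-DRB5 (0.94, then 0.61), HLA-DRB6 (0.91, 0.41), BCMO1 (0.87, 0.44), SHH (0.86, 0.83) and SPRY2 (0.84, 0.50). For HLA-DRA they were OGFRL1 (0.92, 0.86), MYBPH (0.89, 0.86), YWHAH (0.88, 0.84), SPRY2 (0.87, 0.70) and HLA-DRB6 (0.87, 0.59). For CIITA they were BCMO1 (0.85, 0.59), STX2 (0.85, 0.80), SPRY2 (0.85, 0.53), OGFRL1 (0.85, 0.58) and SERTAD2 (0.84, 0.44). BCMO1 was near the floor, with a mean of 0.417 CPM at passage 4 and 1.46 CPM in lagger replicate 1. By group mean SHH, a secreted morphogen, was at 32.5 CPM in the parental line and 206.8 CPM at passage 4, and SPRY2, a feedback inhibitor of receptor tyrosine kinase signalling, at 210.3 and 438.9 CPM.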

How the data were processed

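Per the labels, low-input RNA of 18 libraries was amplified with SMART-Seq v4 reagents, a chemistry without strand marks, and read in pairs. The deposited values are raw counts per gene. The submitters' processing notes name the tools HTSeq 0.5.3, STAR 2.5.0a, cutadapt 1.6 and DESeq 1.22.1, without their order. A genome build and an annotation were not given in the sources used here. The 5 entries that name no gene (27.6% to 60.6% of all entries) were left out of library sizes and tests. Replicates differed by more than counting error (chi-square of 21.3 to 238.3 per degree of freedom).

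Counts of all 18 libraries were fitted with edgeR 4.0.16 in R 4.3.3 (filterByExpr by group, TMM scaling, 1 mean per group, quasi-likelihood tests), which left 16187 genes to test and 41258 not tested, in 7 comparisons. SE is the absolute log2 fold change divided by the square root of F. CPM use TMM-scaled library sizes. Scripts were tested on simulated data. Alternatives were size factors of DESeq2, DESeq2 1.42.0, limma-voom (limma 3.58.1), no filter, only the compared groups, a block for the replicate number and leaving out each replicate. Intervals and floors (3 counts) cover counting error only.

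Members and gene lists were chosen with earlier results of these data known. Named were the 10 genes, up to 4 genes per list with the smallest adjusted p in laggers against the parental line, every gene a count of 5 or fewer needs, and 5 genes of like pattern each for CD74, HLA-DRA and CIITA. WARS, CTSH, GBP4, B2M, CD86, CTSS, CD79A, ITGAM, PTPRC, CD68, FCER1G, HLA-DQB2, CXCL10, IDO1 and HLA-DOB were chosen after their values were seen where the rule does not give them. Some listed genes are not reported here, the marker PECAM1 was not analysed here, and of 2 TAP2 identifiers the one with more counts was used. Gene lengths and overlaps are from GENCODE 29, promoters from RefSeq (GRCh38.p14).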

Additional observations from a re-analysis of the deposited data

Results flagged for a closer look

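The change against the parental line differed between leaders of passage 4 and of passage 1 for all 10 genes, by the edgeR test of passage 4 against passage 1, in which the parental line cancels. The difference on the log2 scale was 11.69 for HLA-DRA and 10.20 for HLA-DQA1, both over 4 counts at passage 1, and 7.01 for CIITA and 6.99 for CD74. It was 5.44 for HLA-DRB1, 4.52 for HLA-DPA1, 4.29 for HLA-DMB, 4.14 for HLA-DMA and 3.96 for HLA-DPB1. HLA-DQB1, which was already above the parental line at passage 1, had the smallest difference, 1.78. In each case all 3 passage 4 libraries lay above all 3 passage 1 libraries, an order shared by 24.1% of tested genes.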

How the results depend on the processing

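Of 813 alternative values for single genes, 725 kept direction and side of the threshold, 25 newly passed it, 50 no longer did and 13 reversed. Passage 4 against the parental line kept all 118. Called genes there were 10 under every alternative that gave all 10 a p. DESeq2 called 8 of the 8 it gave a p, also for passage 4 against passage 1. Laggers against the parental line gave 3 genes by limma-voom and 2 with only the compared groups, against 9. Passage 2 against the parental line gave 3 by limma-voom and 8 with only the compared groups, against 5. Passage 1 leaders against laggers gave 2 by DESeq2 and 4 without a filter, all lower in leaders, against 0. Shares of all tested genes under the alternatives are not given here. Leaving out 1 replicate gave 2 to 10 genes for laggers, 3 to 4 for passage 1, 3 to 4 for passage 2, 4 to 6 for passage 3 and 10 to 10 for passage 4 against the parental line, 9 to 10 for passage 4 against passage 1 and 0 to 0 for leaders against laggers. Without lagger replicate 1, laggers against the parental line reversed for CIITA (-0.093, range over left-out replicates -0.093 to 2.89) and HLA-DRA (-0.72, to 6.03), and leaders against laggers for CD74 (-4.48 to 0.92), HLA-DRB1 (-2.34 to 0.41), HLA-DPA1 (-2.49 to 1.08), HLA-DMA (-1.59 to 0.31) and HLA-DMB (-1.89 to 0.028), at the upper end of each range. That comparison also reversed for HLA-DPB1 (-2.60 without leader replicate 3, to 3.56) and HLA-DQB1 (-0.16 without leader replicate 3, to 0.40). Apart from the libraries left out, the cause was not tested. The replicate block left the called genes at 9, 3, 5, 7 and 10 for laggers and passages 1 to 4 against the parental line, 0 for leaders against laggers and 10 for passage 4 against passage 1. Replicate numbers did not pair the libraries: deviations of same-numbered libraries had a mean r of -0.01 (-0.34 to 0.35, 45 pairs) and 5 of 18 libraries correlated best with their own number. The other scaling moved the median of all genes by -0.0351 (passage 4 against passage 1) to 0.0262 on the log2 scale. Low counts limit CIITA, HLA-DRA, HLA-DQA1 and HLA-DPB1 outside passage 4, and 3 libraries a group limit every p.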
